A study of Homo sapiens with 8 samples.

Results

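The genes described here are 10 established targets of the transcriptional coactivators YAP and TAZ and of the TEAD factors they bind, followed across 8 RNA-seq libraries of 2 human prostate cancer cell lines. They are CTGF, CYR61, ANKRD1, AMOTL1, AMOTL2, AXL, AJUBA, LIMA1, NT5E and F3, found by symbol in the deposited count tables, where CTGF and CYR61 are the older names of CCN2 and CCN1. All 10 of 10 stood in the tables and passed the filter on low counts, among 36779 genes listed and 17877 tested. The groups were PC3 with a plasmid for circ0003553 (1 library), PC3 with a plasmid for circ0004592 (1 library), PC3 with a negative control plasmid (2 libraries), and the same 3 groups of DU145 (1, 1 and 2 libraries). circ0003553 and circ0004592 are circular RNAs (circRNAs), and the titles name their arms by a gene, RCAN3 for circ0003553 and STK3 for circ0004592. Each line had 1 control library per arm. Both lines grow without androgen, PC3 being derived from a bone metastasis and DU145 from a brain metastasis, and each stands for 1 tumour. The labels do not say whether the libraries came from separate cultures, so the p-values measure the spread between these libraries, which may be technical. In bulk libraries like these, fewer cells that express a gene and less of its RNA per cell cannot be told apart.

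YAP and TAZ have no DNA-binding domain of their own and reach promoters and enhancers through TEAD factors, which recognise the core letters GGAATG. The Hippo kinases, MST1 and MST2 (genes STK4 and STK3) with SAV1 and LATS1 and LATS2 with MOB1, phosphorylate YAP and TAZ and hold them in the cytoplasm. Cell spreading, tension and low density release them, and several target genes encode proteins that feed back on the pathway. Epithelial cancer lines in culture commonly express this program.

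The windows below, shown because TEAD factors recognise this core, are the bases before transcription starts in RefSeq (GRCh38.p14), read 5′ to 3′ on the strand of the gene and without bases that GENCODE v29 annotates as UTR. They show the promoter with most cores (CTGF), the other promoter with more than 1 core (ANKRD1), single cores at second starts (LIMA1, AXL) and F3, which has AP-1 motifs and no core. Capitals mark the TEAD core GGAATG on either strand (CATTCC on the other) and, in F3, the AP-1 motif TGANTCA, and these motifs share no overlap in the windows shown. The windows are chr6:131951374-131951622 (CTGF, minus strand), chr10:90921277-90921337 (ANKRD1, minus), chr12:50202174-50202423 (LIMA1, second start, minus), chr19:41226505-41226754 (AXL, second start, plus) and chr1:94541801-94542009 (F3, minus).
CTGF: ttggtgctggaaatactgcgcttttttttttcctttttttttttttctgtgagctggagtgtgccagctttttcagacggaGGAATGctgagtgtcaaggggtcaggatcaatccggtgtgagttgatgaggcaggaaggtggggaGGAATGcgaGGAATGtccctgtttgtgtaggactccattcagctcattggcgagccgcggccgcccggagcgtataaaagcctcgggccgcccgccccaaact
ANKRD1: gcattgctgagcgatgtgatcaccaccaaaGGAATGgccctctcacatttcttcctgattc
LIMA1: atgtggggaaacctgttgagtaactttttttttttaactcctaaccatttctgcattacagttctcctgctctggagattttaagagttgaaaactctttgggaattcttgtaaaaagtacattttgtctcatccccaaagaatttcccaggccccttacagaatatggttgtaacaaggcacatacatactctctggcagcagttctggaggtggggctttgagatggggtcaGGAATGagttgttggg
AXL: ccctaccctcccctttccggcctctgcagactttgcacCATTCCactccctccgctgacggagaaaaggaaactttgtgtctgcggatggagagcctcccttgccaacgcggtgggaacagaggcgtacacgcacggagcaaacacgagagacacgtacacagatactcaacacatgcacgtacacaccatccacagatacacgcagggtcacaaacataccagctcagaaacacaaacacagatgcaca
F3: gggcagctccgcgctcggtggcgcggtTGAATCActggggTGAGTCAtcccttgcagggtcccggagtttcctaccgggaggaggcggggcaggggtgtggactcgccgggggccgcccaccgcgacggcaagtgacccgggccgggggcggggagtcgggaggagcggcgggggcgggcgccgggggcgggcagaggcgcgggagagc
Over the whole 250 bases before a start, 9 of the 10 genes had at least 1 window in the table, 13 windows in all, and CYR61 had none. CTGF held 3 cores, with their first bases 169, 104 and 95 bases before the start. ANKRD1 held 2 cores, 220 and 128 bases before the start, and an AP-1 motif 195 bases before the start. The second of these cores lies within bases annotated as UTR, and the AP-1 motif runs into them. AMOTL2, AXL, AJUBA and LIMA1 each held 1 core at their second start (69, 212, 59 and 16 bases before it) and none at their first. AMOTL1, NT5E and F3 held no core, and F3 held 2 AP-1 motifs. Among 35116 RefSeq promoter windows of the same length, 11.9% held at least 1 core, 0.94% at least 2 and 0.0826% at least 3, while 6.57% held at least 1 AP-1 motif and 0.402% at least 2. A match is a run of letters and says nothing of binding in these cells.

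The libraries held 33444940 to 49926342 counts each. RCAN3, which names the circ0003553 arm, had 44.0 CPM with circ0003553, against 33.2 and 29.5 CPM in the controls of PC3, and 37.1 CPM, against 20.9 and 18.3 CPM in those of DU145 (log2 fold 0.49 and 0.92). CPM relates the counts of a gene to the TMM-adjusted total of its library. STK3, which names the circ0004592 arm, had 19.3 CPM with circ0004592, against 7.7 and 9.12 CPM in the controls of PC3 (log2 fold 1.19, adjusted p = 2.74e-08). In DU145 it had 34.1 CPM, against 28.8 and 26.1 CPM (0.31, adjusted p = 0.0551), short of the threshold, which it passed with DESeq2 size factors (0.0473) and without either PC3 control (0.0181 and 0.0182). These gene counts do not separate circular from linear RNA. The lines differed at the loci known to be lost in PC3, with 3.84 to 4.60 CPM of CTNNA1 in PC3, against 393 to 431 CPM in DU145. All 4 epithelial markers were detected, CDH1 at 0.726 to 1.17 CPM in PC3 and 41.3 to 64.8 CPM in DU145, and none of 5 leukocyte or 4 erythroid markers passed the filter. Of 6 fibroblast markers 2 passed it, PDGFRA and COL1A1. Both were higher in PC3 than in DU145 with control plasmid (log2 folds of 9.82 ± 0.78 and 3.47 ± 0.12). KLK3, a prostate luminal marker, was at or near 0 in both lines.

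With control plasmid, all 10 genes were lower in PC3 than in DU145, by 1.92-fold (AMOTL1) to 34.9-fold (F3). The lines differed at most genes, 82.6% of all tested genes being called and 41.1% called lower, by edgeR's quasi-likelihood test with Benjamini-Hochberg adjustment over 17877 genes at a threshold of 0.05. The median log2 fold was -1.71 over the 10 genes and 0 over all tested genes. F3, the tissue factor that starts coagulation, averaged 2.69 ± 0.253 CPM in PC3 and 94 ± 1.84 CPM in DU145 controls (SD, n = 2 each), a log2 fold of -5.13 ± 0.087 (SE). ANKRD1, a nuclear ankyrin-repeat protein best known from muscle, averaged 3.92 ± 0.339 CPM in PC3 and 78.7 ± 0.401 CPM in DU145 (SD, n = 2 each), a log2 fold of -4.33 ± 0.086. Both genes were thus at a few CPM in PC3 and well expressed in DU145. AMOTL2, an angiomotin-family protein of cell junctions that binds YAP, averaged 44 ± 0.644 CPM in PC3 and 386 ± 3.2 CPM in DU145 (SD, n = 2 each), with a log2 fold of -3.14 ± 0.052. The matricellular protein gene CYR61 averaged 51.2 ± 2.19 CPM in PC3 and 212 ± 0.568 CPM in DU145, with a log2 fold of -2.05 ± 0.053. The 4 smallest gaps were those of CTGF, AJUBA, AMOTL1 and LIMA1, at log2 folds of -1.03, -1.04, -0.94 and -1.47, and AXL and NT5E lay between at -1.54 and -1.89. The groups did not overlap for any of the 10, as for 90.7% of all tested genes, PC3 being the lower line in 45.4%.

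Per length the order of the genes also differed between the lines. On the deposited RPKM scale (counts relative to gene length and library total), the mean control levels in PC3 ran from AXL (28.3 RPKM), LIMA1 (24.8), CYR61 (21), AJUBA (11.7), CTGF (8.22), AMOTL2 (7.39), NT5E (6.97) and AMOTL1 (3.31) down to ANKRD1 (1.99) and F3 (0.941). In DU145 they ran from CYR61 (86.5 RPKM), AXL (82.1), LIMA1 (68.2), AMOTL2 (64.8), ANKRD1 (39.9), F3 (32.8), NT5E (25.7), AJUBA (24) and CTGF (16.7) down to AMOTL1 (6.32). AXL, a receptor tyrosine kinase for GAS6, and LIMA1, an actin-bundling LIM protein, stood in the upper 3 of 10 in both lines. CTGF, the most used readout of the pathway, ranked 5 of 10 in PC3 and 9 of 10 in DU145. F3 was last in PC3 and 6 of 10 in DU145. Between the control libraries of a line, the genes moved by -0.19 to 0.03 on the log2 scale in PC3 (STK3 arm minus RCAN3 arm) and by -0.13 to 0.10 in DU145, where the median absolute difference over all tested genes was 0.1 in each line.

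**Figure D1:**
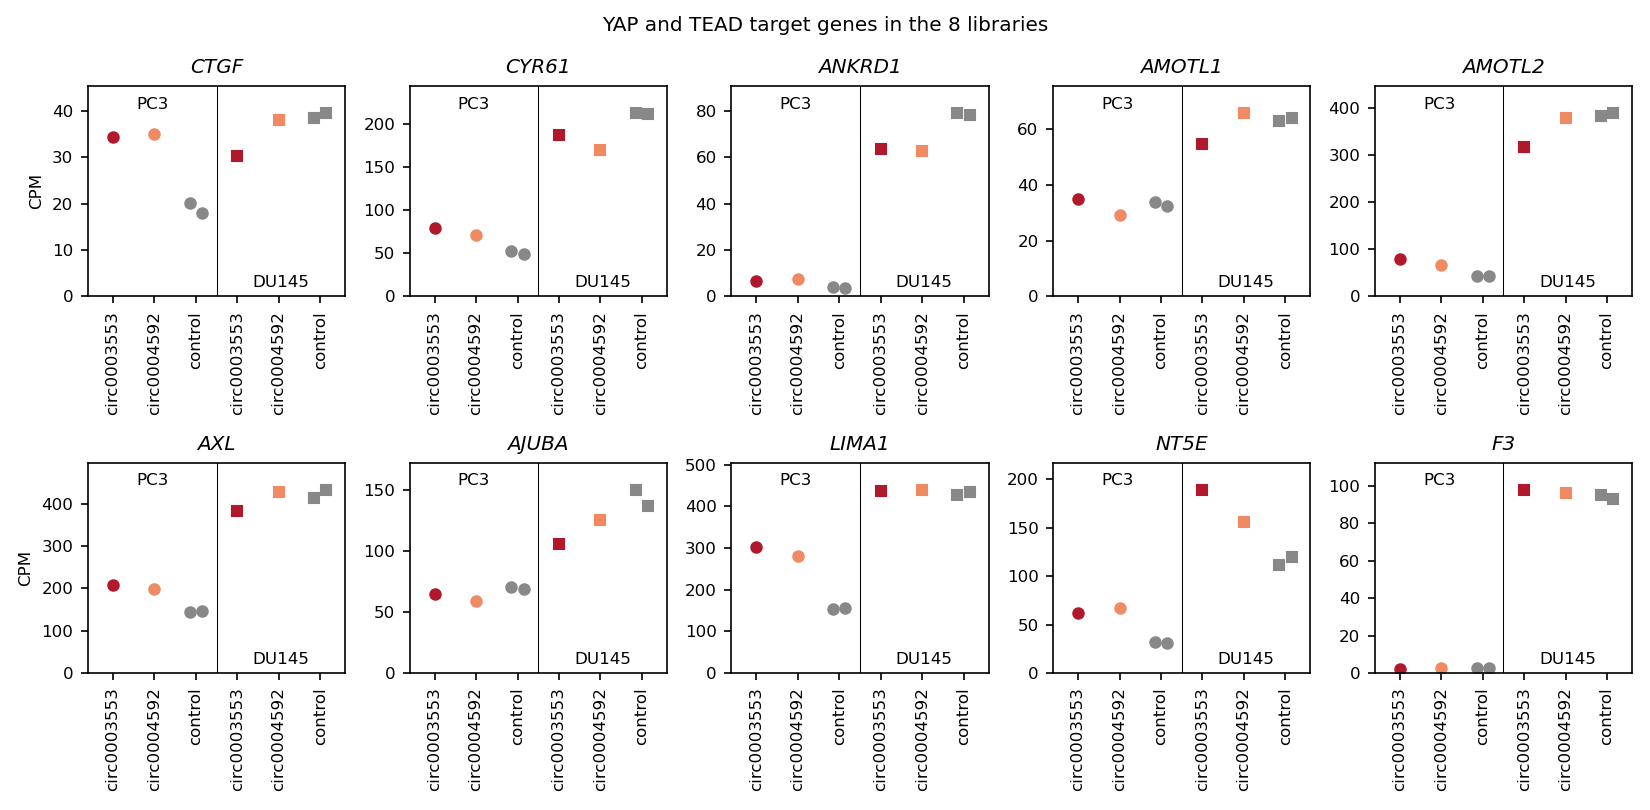
CPM of each of the 10 genes (one panel each, linear axis from 0) in the 8 libraries, with PC3 as circles left of the line and DU145 as squares right of it, and 1 point per library. In PC3 both circRNA points stand above both control points for 7 genes, while AJUBA, AMOTL1 and F3 do not, and NT5E is the gene whose circRNA points also stand above the controls in DU145 by a called margin. How many of all tested genes separate from their controls in this way was not counted in either line.

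In PC3, 7 of the 10 genes rose with circ0003553 and 7 rose with circ0004592, by 1.37-fold to 2.13-fold. These were CTGF, CYR61, ANKRD1, AMOTL2, AXL, LIMA1 and NT5E in each case, and both circRNAs were set against the same 2 control libraries. Of all tested genes, 28.8% were called with circ0003553 (14.3% higher) and 25.7% with circ0004592 (12.3% higher). The median log2 fold of the 10 genes was 0.71 with circ0003553 and 0.53 with circ0004592, and over all tested genes it was -0.03 with each. AJUBA fell with circ0004592, and AMOTL1 and F3 did not pass the test with either. Each circRNA library stood alone in its group, and its spread was taken to be that of the controls. The 7 rises with each circRNA were kept in all 10 alternatives that refit the model.

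Of the secreted matricellular proteins, which bind integrins and growth factors, CTGF had 34.4 CPM with circ0003553 and 35.1 CPM with circ0004592, against 20.2 and 18 CPM in the PC3 controls. Its log2 folds were 0.85 ± 0.092 (adjusted p = 1.01e-07) and 0.88 ± 0.092 (adjusted p = 5.91e-08). CYR61 had 79.4 and 71.2 CPM with circ0003553 and circ0004592, against 52.7 and 49.6 CPM in the controls, with log2 folds of 0.63 ± 0.065 (adjusted p = 4.41e-08) and 0.48 ± 0.066 (adjusted p = 4.79e-06). For both genes each circRNA library lay above each control. ANKRD1 had 6.78 and 7.39 CPM, against 4.16 and 3.68 CPM in the controls, and its log2 folds of 0.79 ± 0.14 (adjusted p = 0.000102) and 0.91 ± 0.14 (adjusted p = 1.33e-05) were the least precise of the 7, with 132 to 246 counts of it per library. Both circRNA libraries were again higher than both controls, at a level that was still far under that of DU145.

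Of the angiomotin-like proteins, which tether YAP at junctions, AMOTL2 rose and AMOTL1 did not pass the test. AMOTL2 had 78.9 CPM with circ0003553 and 66.1 CPM with circ0004592, against 44.4 and 43.5 CPM in the PC3 controls, with log2 folds of 0.84 ± 0.062 (adjusted p = 1.14e-10) and 0.59 ± 0.064 (adjusted p = 1.03e-07). AMOTL1 had 34.9 and 29.1 CPM, against 33.7 and 32.2 CPM in the controls, with log2 folds of 0.08 (adjusted p = 0.496) and -0.18 (adjusted p = 0.117). AMOTL1 lay above both controls with circ0003553 and below both with circ0004592, and the difference between the paralogs was not tested.

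Of the surface proteins, AXL had 207 CPM with circ0003553 and 198 CPM with circ0004592, against 144 and 146 CPM in the PC3 controls. Its log2 folds were 0.51 ± 0.057 (adjusted p = 1.46e-07) and 0.45 ± 0.057 (adjusted p = 1.29e-06). NT5E (CD73), the ecto-enzyme that makes adenosine from AMP, had 61.8 and 66.7 CPM, against 32.0 and 30.8 CPM in the controls. Its log2 folds of 0.98 ± 0.072 (adjusted p = 9.55e-11) and 1.09 ± 0.071 (adjusted p = 1.12e-11) were the largest of the 10 with each circRNA. F3 had 1.94 and 2.70 CPM, against 2.87 and 2.51 CPM in the controls, with log2 folds of -0.47 ± 0.2 (adjusted p = 0.0798) and 0.01 (adjusted p = 0.991). At 64 to 102 counts per PC3 library, F3 was the gene with the widest error, and its own-control ratio with circ0003553 was 0.675 with a 95% interval of 0.42 to 1.07 that covers counting error alone.

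Of the LIM-domain proteins of actin and junctions, LIMA1 had 302 CPM with circ0003553 and 281 CPM with circ0004592, against 154 and 157 CPM in the PC3 controls. Its log2 folds were 0.96 ± 0.054 (adjusted p = 6.29e-13) and 0.86 ± 0.054 (adjusted p = 6.7e-12), the smallest p-values of the 10 in the PC3 libraries. AJUBA, which binds LATS kinases at junctions under tension, had 65.1 and 58.7 CPM, against 70.5 and 69.0 CPM in the controls. Its log2 folds were -0.1 (adjusted p = 0.323) with circ0003553 and -0.25 ± 0.071 (adjusted p = 0.0112) with circ0004592. AJUBA was the gene that lay under both controls with both circRNAs in PC3, and the call with circ0004592 was lost with DESeq2 (adjusted p = 0.0819), with limma on RPKM (adjusted p = 0.0781) and with both circRNAs as 1 group (adjusted p = 0.222).

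Other RNAs moved with the circRNA libraries of PC3, and their part in these rises was not tested. All 32 of 32 interferon-stimulated genes listed were called higher with each circRNA in PC3, their sum being 20540 and 19990 CPM, against 541.8 and 544.6 CPM in the controls. In DU145 the sum was 500.2 and 511.3 CPM, against 450.5 and 444.5 CPM, with 16 and 10 of 32 called higher and 1 lower with each. Mitochondrially encoded mRNAs took 3.8% and 4.76% of the counts with the circRNAs in PC3, against 6.59% and 6.41% in the controls, all 13 of 13 called lower. In DU145 they took 5.73% and 4.62%, against 4.15% and 4.48%, with 13 and 5 of 13 called higher and 0 lower. Of all tested genes in PC3, 14.3% and 12.3% were called higher and 14.5% and 13.5% lower with circ0003553 and circ0004592. In DU145 these shares were 4.62% and 5.93% higher and 6.27% and 4.51% lower. The summed level of the 10 target genes was 872.1 and 816.7 CPM with the circRNAs in PC3, against 558.4 and 552.3 CPM in its controls, and 1866 and 1957 CPM in DU145, against 1972 and 1997 CPM. Both circRNA libraries thus lay above both controls in PC3 and below both in DU145. With circ0004592 in DU145 the sum lay nearer to a control (1957 and 1972 CPM) than the controls lay to each other (1972 and 1997 CPM).

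Fewer of the 10 genes were called in DU145, and most of those called fell. With circ0003553, NT5E rose and 4 genes fell (AJUBA, CTGF, ANKRD1 and AMOTL2), where 10.9% of all tested genes were called, 4.62% higher and 6.27% lower. With circ0004592, NT5E rose and 2 genes fell (ANKRD1 and CYR61), where 10.4% were called, 5.93% higher and 4.51% lower. The median log2 fold of the 10 genes was -0.19 with circ0003553 and -0.01 with circ0004592, against 0 over all tested genes with each. Without either DU145 control the count of the 10 with circ0003553 was 3, and DESeq2 also called 3. Limma on RPKM called 0 of the 10 and 0 genes in all with each circRNA in DU145, where 6 and 4 of the 10 and 3448 and 3877 of all genes had an unadjusted p under 0.05.

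NT5E was the 1 gene of the 10 called higher in both lines with both circRNAs. It had 189 CPM with circ0003553 and 156 CPM with circ0004592 in DU145, against 112 and 120 CPM in the controls, with log2 folds of 0.71 ± 0.062 (adjusted p = 1.55e-07) and 0.42 ± 0.063 (adjusted p = 0.000123). Both circRNA libraries lay above both controls in each line. CTGF had 30.4 and 38.0 CPM, against 38.6 and 39.5 CPM in the controls, with log2 folds of -0.36 ± 0.086 (adjusted p = 0.00786) and -0.04 (adjusted p = 0.847). ANKRD1 had 63.5 and 62.8 CPM, against 79.0 and 78.4 CPM in the controls, with log2 folds of -0.31 ± 0.074 (adjusted p = 0.00751) and -0.33 ± 0.076 (adjusted p = 0.00686). For both genes the circRNA libraries lay below both controls, for CTGF by a small margin with circ0004592, and the difference between the circRNAs was not tested. Without the control of the RCAN3 arm, the adjusted p was 0.0735 for CTGF with circ0003553 and 0.0907 and 0.074 for ANKRD1. Without the control of the STK3 arm it was 0.0881 for CTGF and 0.074 and 0.0843 for ANKRD1. The folds stayed near their size, at -0.38 and -0.34 for CTGF and between -0.31 and -0.33 for ANKRD1, while the 3 calls were lost.

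CYR61 had 187 CPM with circ0003553 and 170 CPM with circ0004592 in DU145, against 212 and 211 CPM in the controls, with log2 folds of -0.18 (adjusted p = 0.0593) and -0.32 ± 0.061 (adjusted p = 0.00136). AMOTL2 had 318 and 379 CPM, against 384 and 389 CPM in the controls, with log2 folds of -0.28 ± 0.056 (adjusted p = 0.00183) and -0.03 (adjusted p = 0.81). AJUBA had 106 and 125 CPM, against 150 and 137 CPM in the controls, with log2 folds of -0.43 ± 0.066 (adjusted p = 0.000117) and -0.2 (adjusted p = 0.0591). All 3 genes lay under both controls in both circRNA libraries. AMOTL1 had 54.6 and 65.4 CPM, against 62.7 and 63.9 CPM in the controls, with log2 folds of -0.21 (adjusted p = 0.0567) and 0.05 (adjusted p = 0.749). AXL had 382 and 426 CPM, against 412 and 432 CPM in the controls, where the circ0004592 library fell between the controls. Its adjusted p was 0.0999 with circ0003553 and 0.922 with circ0004592. Without 1 of the PC3 controls, which changes the estimate of the spread and not the DU145 values, AMOTL1 and CYR61 with circ0003553 and AJUBA with circ0004592 passed the threshold in DU145 (adjusted p of 0.0279, 0.0263 and 0.0159 without the RCAN3-arm control and 0.0275, 0.0264 and 0.0159 without the STK3-arm control).

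LIMA1 and F3 were both close to their controls in DU145. LIMA1 had 437 and 439 CPM with circ0003553 and circ0004592, against 426 and 433 CPM in the controls. F3 had 97.8 and 96.1 CPM, against 95.3 and 92.7 CPM. The log2 folds of LIMA1 were 0.03 and 0.03, and those of F3 were 0.06 and 0.03, none past the threshold.

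The effect of a circRNA differed between the lines for 8 of the 10 genes with circ0003553 and for 7 with circ0004592, in each case more positive in PC3. Of all tested genes, 22.6% were called in this difference with circ0003553 (12.1% more positive and 10.5% more negative in PC3) and 20.3% with circ0004592 (9.79% and 10.5%). The difference in log2 fold, PC3 minus DU145, was largest for CTGF with circ0003553 (1.21 ± 0.13, adjusted p = 9.79e-08) and for ANKRD1 with circ0004592 (1.24 ± 0.16, adjusted p = 1.88e-06). For LIMA1 it was 0.93 ± 0.078 (adjusted p = 1.89e-09) and 0.82 ± 0.078 (adjusted p = 1.93e-08), and for AMOTL2 1.13 ± 0.084 (adjusted p = 2.79e-10) and 0.62 ± 0.085 (adjusted p = 6.9e-06). NT5E, which rose in both lines, still differed between them, by 0.27 ± 0.096 (adjusted p = 0.0448) with circ0003553 and by 0.66 ± 0.097 (adjusted p = 1.56e-05) with circ0004592. AJUBA differed with circ0003553 (0.34 ± 0.096, adjusted p = 0.0123), having fallen in DU145 without passing the test in PC3, and AMOTL1 and F3 passed with neither. The calls of NT5E and AJUBA with circ0003553 were lost without single controls. NT5E had an adjusted p of 0.161 without the STK3-arm control of DU145 and 0.0723 without that of PC3, and AJUBA had 0.077 without the RCAN3-arm control of DU145. With DESeq2 neither passed (adjusted p of 0.147 and 0.0511). Without a control, 2 genes came to pass with circ0003553, AMOTL1 at 0.33 (adjusted p = 0.0255) without the RCAN3-arm control of PC3 and F3 at -0.62 (adjusted p = 0.0486) without its STK3-arm control.

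The distance between the lines was narrower with circ0003553 for 9 of the 10 genes and with circ0004592 for 7. On CPM with 0.1 added, it was also narrower for 48.8% and 47.8% of all tested genes, and for 51.9% and 48.8% of the 7343 genes called lower in PC3 controls. The 9 include AMOTL1, whose difference between the lines did not pass the test (adjusted p = 0.0502). CTGF in PC3 stood at 113% of its level in DU145 with circ0003553 and at 92.4% with circ0004592, against 48.9% with control plasmid. Of the 10 genes, CTGF came closest to an equal level in both lines. LIMA1 in PC3 stood at 69.1% and 64.1% of DU145 with the circRNAs, against 36.2% with control plasmid. CYR61 stood at 42.4% and 42% against 24.2%, and AMOTL2 at 24.8% and 17.5% against 11.4%. The gap of ANKRD1 stayed wide, PC3 holding 10.7% and 11.8% of the DU145 level with the circRNAs, against 4.98% with control plasmid. F3 in PC3 stood at 1.98% and 2.81% with the circRNAs, against 2.86%, so the gene with the widest gap between the lines did not come closer.

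**Figure D2:**
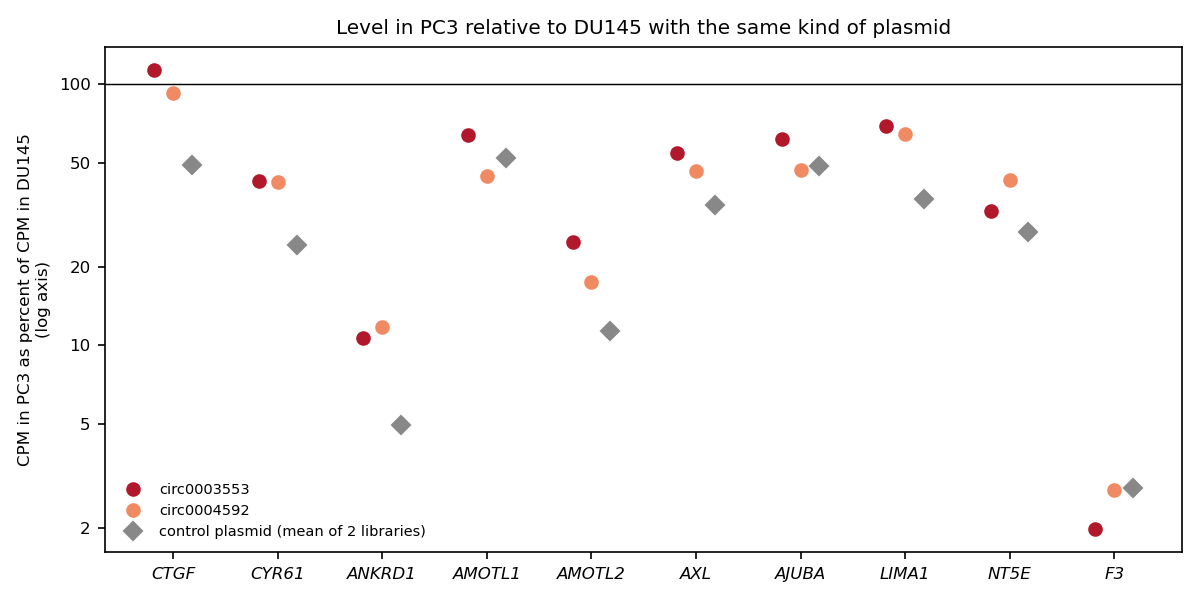
Level of each gene in PC3 as a percent of its level in DU145 (CPM over CPM, log axis), for circ0003553, circ0004592 and the control plasmid (mean of 2 libraries per line). Both circRNA points stand above the control diamond for 7 genes, CTGF reaches 113% and 92.4%, and F3 stays between 1.98% and 2.86%.

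Each circRNA library was also divided by the 1 control that shares its line and arm as a description without a test. Of the 40 folds, 23 were above 0. In PC3, 8 of the 10 genes were above 0 with each circRNA, where 47% of all tested genes were with circ0003553 and 46% with circ0004592, and 7 genes were at or above 0.3 on the log2 scale with each, where 17.5% and 17% of all tested genes were. In DU145, 3 genes were above 0 with circ0003553 and 4 with circ0004592, where 51.1% and 49.9% of all tested genes were. CTGF, CYR61, ANKRD1, AMOTL2 and AXL, 5 genes in all, were above 0 in both PC3 pairs and below 0 in both DU145 pairs. With circ0004592 in DU145, AXL (-0.02), AMOTL2 (-0.04) and CTGF (-0.06) were close to 0, while CYR61 and ANKRD1 were at -0.32. The share of all tested genes with this pattern of signs was not counted, so the 5 cannot be set against it. LIMA1 and NT5E were above 0 in all 4 pairs, LIMA1 at 0.04 and 0.02 in DU145, and AJUBA was below 0 in all 4. When libraries were scaled by their totals alone, LIMA1 with circ0004592 in DU145 was at -0.03, and with the mean of both controls in place of the own control AXL with circ0004592 in DU145 was at 0.01. As ratios of CPM with 95% intervals for counting error alone, NT5E stood at 1.93 (1.74 to 2.14) with circ0003553 and 2.17 (1.96 to 2.41) with circ0004592 in PC3, and at 1.69 (1.61 to 1.78) and 1.29 (1.22 to 1.37) in DU145. CTGF stood at 1.7 (1.49 to 1.95) and 1.95 (1.7 to 2.25) in PC3, and at 0.787 (0.714 to 0.868) and 0.963 (0.864 to 1.07) in DU145.

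**Figure D3:**
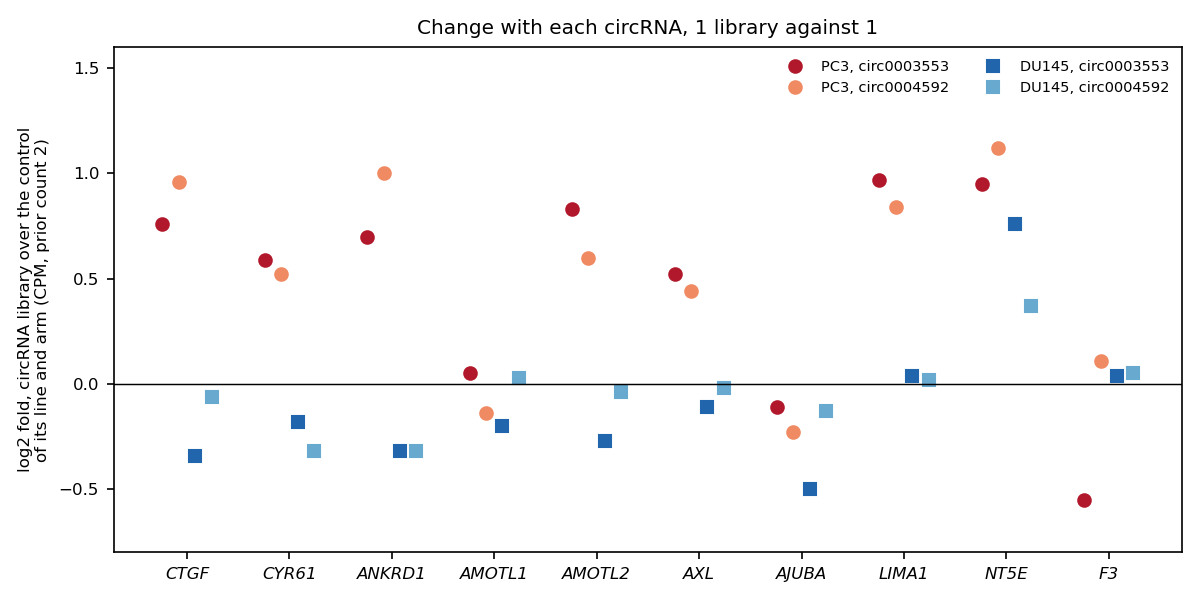
Log2 fold of each gene in a circRNA library over the control library of its line and arm (CPM, prior count 2), with PC3 as circles and DU145 as squares, 1 point per pair and no error bar because each is 1 library against 1. The PC3 points of CTGF, CYR61, ANKRD1, AMOTL2 and AXL stand above 0 and their DU145 points below it, NT5E stands above 0 in all 4 pairs, and AJUBA below it. With circ0004592 the DU145 points of AXL, AMOTL2 and CTGF stand just under 0, at -0.02, -0.04 and -0.06.

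A list of 24 other YAP and TEAD targets, 23 of them tested, did not move one way in PC3. With circ0003553, 8 were called higher and 6 lower, and with circ0004592, 7 higher and 9 lower, with medians of 0.07 and 0 on the log2 scale. These are 34.8% higher and 26.1% lower with circ0003553, against 14.3% and 14.5% of all tested genes, and 30.4% higher and 39.1% lower with circ0004592, against 12.3% and 13.5%. EDN1, the endothelin precursor, had 5.02 and 4.39 CPM with the circRNAs in PC3, against 2.14 and 1.84 CPM in the controls (log2 folds of 1.34 ± 0.2 and 1.14 ± 0.2), and IGFBP3, a binding protein of insulin-like growth factors, had 418 and 390 CPM, against 247 and 258 CPM. TGFB2, a TGF-beta ligand, fell in PC3 to 12.1 and 8.41 CPM with the circRNAs, against 18.4 and 18.7 CPM in the controls, and fell in DU145 to 23.8 and 23.6 CPM, against 33.2 and 39.1 CPM. In DU145, edgeR called 0 of the 23 higher and 6 lower with circ0003553, where 9 had an unadjusted p under 0.05, and 1 higher and 7 lower with circ0004592. Of all tested genes there, 4.62% were called higher and 6.27% lower with circ0003553, and 5.93% and 4.51% with circ0004592. DESeq2 called 0 of the 23 higher in each, with 3 and 2 lower. It gave no adjusted p to some of the 23, which then count as not called. These include NUAK2 and EDN1 with circ0003553 (log2 folds of -0.64 and -0.53) and TGFB2, EDN1 and ARHGEF17 with circ0004592 (-0.61, -0.53 and -0.52). The lower calls of edgeR in DU145 included EDN1, at 10.9 and 10.8 CPM with the circRNAs, against 16.8 and 14.4 CPM. EDN1 was called higher in PC3, and by edgeR its difference between the lines was 1.86 ± 0.24 with circ0003553 (adjusted p = 2.42e-06). Without the RCAN3-arm control of DU145, the adjusted p of EDN1 was 0.191 with circ0003553 and 0.177 with circ0004592, and without the STK3-arm control it was 0.0571 with circ0004592. With the arm as a replicate block it was 0.098 with circ0004592, and with both circRNAs as 1 group it was 0.0604, so the DU145 calls of EDN1 depended on these choices. Between the lines, with control plasmid, 9 of these targets were higher in PC3 and 13 lower, where 41.6% of all tested genes were called higher and 41.1% lower, so that the uniform direction of the 10 genes was not found in this list. INHBA, a subunit of activins, was called higher in PC3 (log2 fold 8.91), as was FSTL1 (7.31), a secreted follistatin-like protein.

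The RNA of the pathway's effectors YAP1 and WWTR1 was not called in any of the 4 comparisons with a circRNA. YAP1 had 63.6 and 66.4 CPM with circ0003553 and circ0004592 in PC3, against 64.6 and 66.4 CPM in the controls, and 107 and 94.7 CPM in DU145, against 110 and 104 CPM. WWTR1, which encodes TAZ, had 146 and 149 CPM in PC3, against 133 and 136 CPM, and 99.5 and 97.7 CPM in DU145, against 91.5 and 99.3 CPM. Their smallest adjusted p was 0.0937, for YAP1 with circ0004592 in DU145. Of 8 factors tested among the 10 listed, TEAD1 was called higher with circ0003553 in PC3 (log2 fold 0.24 ± 0.082, adjusted p = 0.0321) and lower with circ0004592 in DU145 (-0.31 ± 0.072, adjusted p = 0.00628), and TEAD2 was called higher with circ0004592 in PC3 (0.32 ± 0.11, adjusted p = 0.0338). TEAD1 had 30.7 and 29.6 CPM in PC3, against 27 and 25 CPM, and 74.2 and 65.6 CPM in DU145, against 81.5 and 81.3 CPM. The TEAD1 and TEAD2 calls were each lost without 1 control, with adjusted p of 0.149 and 0.127 in PC3 without the STK3-arm control of PC3, and 0.0614 for TEAD1 in DU145 without the RCAN3-arm control of DU145 and 0.0745 without the STK3-arm one. The TEAD1 call in PC3 also had 0.0585 and 0.0587 without a DU145 control of the RCAN3 or the STK3 arm, and it was lost with the arm as a replicate block (0.078), without a filter (0.151), with limma on RPKM (0.167), with DESeq2 (0.184) and with both circRNAs as 1 group (0.114). The TEAD2 call in PC3 was also lost without a filter, with limma on RPKM, with DESeq2 and with both circRNAs as 1 group. That of TEAD1 in DU145 was also lost with limma on RPKM, with DESeq2 and with both circRNAs as 1 group. Between the control libraries, PC3 had less RNA than DU145 of YAP1 (log2 fold -0.71 ± 0.054), TEAD1 (-1.64 ± 0.062), TEAD3 (-0.95 ± 0.12) and TEAD4 (-1.33 ± 0.14), and more of WWTR1 (0.5 ± 0.053) and TEAD2 (1.32 ± 0.099). The 10 target genes, all lower in PC3, thus stood beside lower RNA of 4 and higher RNA of 4 of the 8 factors.

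Of 18 genes of the upstream Hippo pathway, 6 were called higher and 3 lower with circ0003553 in PC3, and 6 higher and 2 lower with circ0004592. The higher calls, 33.3% with each, compare with 14.3% and 12.3% of all tested genes, and the lower calls, 16.7% and 11.1%, were near the 14.5% and 13.5% of all tested genes. The 6 higher calls with circ0004592 include STK3 (log2 fold 1.19), the gene that names the arm. That call may reflect the plasmid itself and is no separate result on the pathway. SAV1, the scaffold of the MST kinases, had 69.8 and 67.8 CPM with the circRNAs in PC3, against 37.2 and 38.2 CPM in the controls (log2 folds of 0.89 ± 0.074 and 0.85 ± 0.074). In DU145 it had 70.4 and 70.2 CPM, against 73.3 and 66.8 CPM, so that SAV1, like CTGF, reached in PC3 about the level of DU145. LATS2, which is both a Hippo kinase and a YAP target, had 10.8 and 10.9 CPM in PC3, against 8.49 and 7.14 CPM (log2 folds of 0.46 ± 0.13 and 0.48 ± 0.13), the circ0003553 call being lost without the STK3-arm control (adjusted p = 0.0566). Both LATS2 calls were lost with DESeq2 (adjusted p of 0.0762 and 0.0723) and with limma on RPKM (0.086 and 0.0815). WWC1 (KIBRA), an upstream activator of the kinases, fell in DU145 to 140 CPM with circ0003553 and 154 CPM with circ0004592, against 204 and 205 CPM in the controls (log2 folds of -0.55 ± 0.065 and -0.41 ± 0.066). WWC1 was also called lower in PC3, at log2 folds of -0.37 ± 0.083 and -0.36 ± 0.083. Its difference between the lines, 0.18 ± 0.1 and 0.05 ± 0.11, passed the test with neither circRNA. In DU145, 0 and 1 of the 18 were called higher and 4 and 1 lower with circ0003553 and circ0004592. With circ0004592 that is 5.56% in each direction, near the 5.93% higher and 4.51% lower of all tested genes, and with circ0003553 it is 22.2% lower, against 6.27%. Those with circ0003553, by edgeR, stand beside 6 of 18 at an unadjusted p under 0.05 in either direction, and DESeq2 called 0 higher and 3 lower there.

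A list of 15 targets of MRTF and SRF, actin-regulated factors that share several genes with YAP and TEAD, had 13 tested. In PC3, 4 were called higher and 3 lower with circ0003553, and 2 higher and 5 lower with circ0004592. With circ0003553 that is 30.8% and 23.1%, against 14.3% and 14.5% of all tested genes, and with circ0004592 it is 15.4% and 38.5%, against 12.3% and 13.5%, the higher share being near that of all genes. TPM1, a tropomyosin, fell in PC3 with circ0003553 (log2 fold -0.47 ± 0.059) and with circ0004592 (-0.62 ± 0.06). With circ0004592 it had 68.7 CPM there, against 106 and 105 CPM in the controls. In DU145 TPM1 fell to 672 and 658 CPM with circ0003553 and circ0004592, against 959 and 957 CPM (log2 folds of -0.51 ± 0.053 and -0.54 ± 0.054). MYL9, a myosin light chain, fell in DU145 with circ0003553 to 182 CPM, against 290 and 289 CPM (-0.67 ± 0.062). In DU145, edgeR called 0 of the 13 higher and 6 lower with circ0003553, where 7 had an unadjusted p under 0.05, and 3 higher and 2 lower with circ0004592. The lower calls were 46.2% and 15.4% of the list, against 6.27% and 4.51% of all tested genes, and the 3 higher calls were 23.1%, against 5.93%. DESeq2 called 0 higher and 6 lower with circ0003553.

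**Figure D4:**
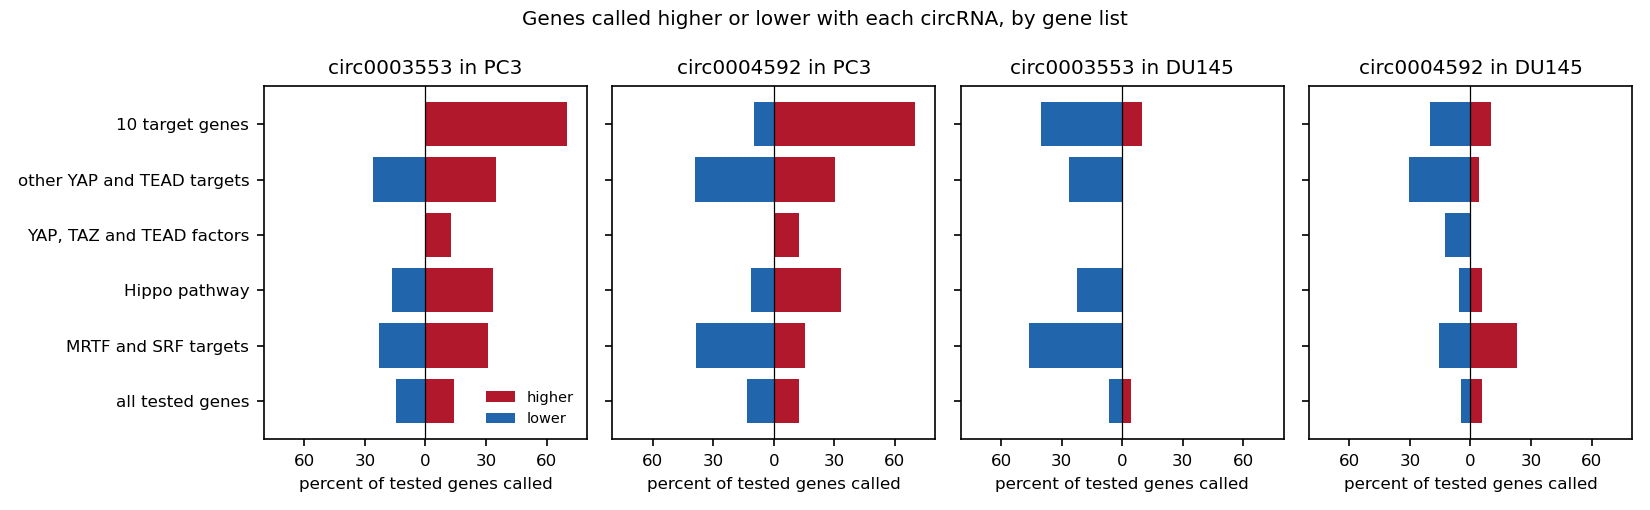
Percent of the tested genes of each list called higher (right of 0, red) or lower (left of 0, blue) with each circRNA in each line, by edgeR at an adjusted p of 0.05, for the 10 target genes, the other lists and all 17877 tested genes. In PC3 the 10 target genes have 7 higher calls with each circRNA and 0 and 1 lower calls, while the other lists hold calls in both directions or few calls.

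The genes most like CTGF over the 8 libraries, among 7406 genes with a mean of at least 20 CPM, were C22orf39 (Pearson r = 0.989 of log2(CPM + 1)), XXbac-BPG246D15.9 (0.982) and TAP2 (0.982). Those most like CYR61 were DDX1 (0.998), CD2AP (0.998) and POLR3C (0.997). These are descriptions over 8 libraries that share their lines and plasmids, and the 2 target genes had no gene in common among their nearest 3.

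In hg38, as the deposited tables give them, CTGF lies at chr6:131948176-131951373 (minus strand), CYR61 at chr1:85580761-85583962 (plus), ANKRD1 at chr10:90912096-90921276 (minus) and AMOTL1 at chr11:94706431-94876753 (plus). AMOTL2 lies at chr3:134355874-134375479 (minus), AXL at chr19:41219203-41261766 (plus), AJUBA at chr14:22971174-22982642 (minus), LIMA1 at chr12:50175788-50283546 (minus), NT5E at chr6:85449584-85495791 (plus) and F3 at chr1:94529225-94541800 (minus). Exons of 5 of the genes overlap those of another annotated gene, and the strand setting of the counting is not given in the sources used here. The overlapping gene was low beside CTGF (RP11-69I8.3, 0.669 to 2.84 CPM), AXL (CTD-2195B23.3, 2.45 to 7.88 CPM), AMOTL1 (RP11-856F16.2, at most 0.645 CPM) and AMOTL2 (RPL39P5, at most 2.65 CPM). It was higher beside AJUBA (RP11-298I3.5, 9.97 to 19.8 CPM), which shares its strand, as AMOTL2 shares that of RPL39P5. Counts shared or lost through these overlaps were not measured, so the AJUBA values are uncertain by an unknown amount.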

How the data were processed

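Total RNA of 8 libraries was depleted of ribosomal RNA and sequenced from a stranded kit with molecular identifiers, per the labels' protocols. The submitters' processing notes name Trimmomatic 0.36, featureCounts of Subread 1.5.1, edgeR 3.12.1 and hg38. Not given in the sources used here are the aligner, the gene annotation, whether counting used strand and how identifiers were used. The authors deposited raw read counts per gene and RPKM per gene, 1 pair of tables per arm, and these RPKM are the deposited counts divided by gene length and library total. No deposited sample column was left unused.

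Genes with at least 1 CPM in at least 2 libraries (17877 of 36779) were tested by edgeR's quasi-likelihood method (version 4.0.16, R 4.3.3) after TMM scaling, in 1 fit of 6 groups of line and treatment with 2 residual degrees of freedom, so the spread came from the controls. Genes listed in 1 table alone (5511, at most 14 counts) were given 0 in the other. P-values were adjusted by Benjamini-Hochberg over all tested genes in each of 7 comparisons, with a threshold of 0.05. An SE is the absolute log2 fold divided by the square root of the F statistic. The test was run on simulated counts, all drawn with the spread estimated from these libraries. That cannot show whether a lone circRNA library varies like the controls. Own-control folds used a prior count of 2. Even numbers made up 64.9% to 66.1% of low counts in a library, so intervals (95% Clopper-Pearson, counting error alone) took the read pair as the unit. The titles carry no replicate numbers, and the controls of a line are called by arm.

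The 10 genes, the other lists and the comparisons were chosen with earlier results of these data known. Named in each comparison were the 10 genes, up to 4 called genes of the list of other targets and up to 3 of each other list by absolute fold, of which the text gives a part and some are not reported here, and YAP1, WWTR1 and TEAD1 to TEAD4 by level. Nearest genes were the 3 with the highest Pearson r. Promoter windows came from the RefSeq table (GRCh38.p14). The model was refitted with the arm as a replicate block, with both circRNAs of a line as 1 group, without each control, without the filter, with DESeq2 size factors, with DESeq2 (1.42.0) and with limma (3.58.1) on log2(RPKM + 0.1). For own-control folds they were library totals, DESeq2 size factors, a prior count of 10 and the mean of both controls. Genes to which DESeq2 gave no adjusted p were counted as not called.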

Additional observations from a re-analysis of the deposited data

Results flagged for a closer look

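A difference between the lines in the effect of a circRNA passed the test for the following genes, given as the log2 fold in PC3 minus that in DU145 (edgeR, adjusted over all tested genes). With circ0003553 the difference was 1.21 for CTGF, 1.13 for AMOTL2, 1.1 for ANKRD1, 0.93 for LIMA1, 0.81 for CYR61, 0.66 for AXL, 0.34 for AJUBA and 0.27 for NT5E. With circ0004592 it was 1.24 for ANKRD1, 0.92 for CTGF, 0.82 for LIMA1, 0.8 for CYR61, 0.66 for NT5E, 0.62 for AMOTL2 and 0.44 for AXL. CTGF, CYR61, ANKRD1, AMOTL2 and AXL rose in PC3 and lay at or below their controls' mean in DU145 with circ0003553, while NT5E rose in both lines and more in PC3. Both differences use the same control libraries of each line, so the lists for the 2 circRNAs are not independent of each other.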

How the results depend on the processing

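The 7 rises in PC3 with each circRNA were kept under each of the 10 alternatives that refit the model. The 10 lower levels in PC3 controls were kept under the 9 alternatives that tested them. The fit with both circRNAs as 1 group did not compare the controls of the lines. In DU145 the calls were less stable. With circ0003553, all genes called in DU145 numbered 1947 (5 of the 10 target genes), against 180 (1) with both circRNAs as 1 group, 820 (3) with DESeq2, 0 (0) with limma on RPKM, and 672 to 2699 (3 to 7) with a control left out. With circ0004592 they numbered 1866 (3), against 180 (1), 835 and 0 (0) in the same order, and 490 to 2529 (2 to 4) with a control left out. In PC3, 5152 and 4597 genes were called with circ0003553 and circ0004592, against 3305 and 2641 with limma and 2565 and 2266 with DESeq2. For the difference between the lines, 4047 and 3621 were called, against 2165 for each with both circRNAs as 1 group, 1961 and 1619 with limma, and 2016 and 1807 with DESeq2. DESeq2 also moved the split of higher to lower calls, to 1538 and 1027 from 2564 and 2588 with circ0003553 in PC3 to 219 and 601 from 826 and 1121 with circ0003553 in DU145, to 565 and 270 from 1060 and 806 with circ0004592 in DU145, and to 1355 and 661 from 2170 and 1877 for the circ0003553 difference. The cause was not tested.

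Signs turned mostly for values near 0. The exception among called values was RCAN3 with circ0004592 in PC3, lower at -0.42 and at 0.10 with both circRNAs as 1 group, a fit that pools it with circ0003553, where RCAN3 was higher. In that fit the others were AMOTL1 with circ0003553 (-0.04) and F3 with circ0004592 (-0.21) in PC3, STK3 with circ0003553 in DU145 (0.09), AMOTL1 (-0.08) and AXL (-0.06) with circ0004592 in DU145, and the circ0004592 difference between lines of AJUBA (0.14) and AMOTL1 (0.04). With limma they were F3 in PC3 (0.00) and AMOTL1 (-0.01), AXL (-0.04), F3 (-0.02), LIMA1 (-0.02) and RCAN3 (-0.01) in DU145 with circ0004592, and F3 in the difference (0.02). Without a filter F3 with circ0004592 in PC3 was -0.02. With a control of the same line left out, all with circ0004592, AXL ran from -0.02 to 0.05 and RCAN3 turned to -0.05 in DU145, F3 ran from -0.08 to 0.11 in PC3, and in the difference AJUBA ran from -0.12 to 0.01 and F3 from -0.11 to 0.09. Own-control folds with circ0004592 in DU145 turned for AMOTL1 (-0.02) and LIMA1 (-0.03) with library totals and for AXL (0.01) with the mean of both controls. The labels pair no replicates by number. With the arm as a replicate block, which leaves 1 residual degree of freedom, AXL with circ0004592 in DU145 turned to -0.01 and 69 of 70 results on the 10 genes kept sign and call, while EDN1 with circ0004592 in DU145 (-0.42, adjusted p = 0.098) and TEAD1 with circ0003553 in PC3 (0.21, adjusted p = 0.078) lost their calls. Depth limits F3 and ANKRD1 in PC3 most, at 64 to 246 counts a library.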
